A study of Homo sapiens with 11 samples.

Results

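The regions described here are stretches of chromatin that carried trimethylation of lysine 20 of histone H4 (H4K20me3) in MDA-MB-231 cells without mdig but not in cells with mdig, and that already carried trimethylation of lysine 9 of histone H3 (H3K9me3) in the cells with mdig. They were taken from the list of 25318 enriched H4K20me3 intervals of the knockout cells on chromosomes 1 to 22 and X. An interval was a member when it shared no base with an H4K20me3 interval of the wild-type cells and at least 1 bp with an H3K9me3 interval of the wild-type cells. This gave 12394 members over 73.0 Mb, which is 49.0% of the knockout H4K20me3 intervals.

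H3K9me3 is the mark of constitutive heterochromatin and is read by proteins of the HP1 family. The SUV420H enzymes that add the second and the third methyl group to H4K20 are recruited through HP1, so H4K20me3 is commonly found where H3K9me3 lies, on repeats, near centromeres and telomeres and over silent gene clusters. H3K4me3 marks active promoters and H3K36me3 the bodies of transcribed genes, and neither is a usual mark of such chromatin. Mdig, also called MINA53 or RIOX2, is an oxygenase with a JmjC domain.

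MDA-MB-231 is a human triple-negative breast cancer line. The labels put both kinds of cells down to CRISPR-Cas9 work, with normal mdig protein in the wild type (WT) and none in the knockout (KO), and all cells were kept in medium with blasticidin. Whether a KO or WT population was 1 clone is not given in the sources used here. Chromatin immunoprecipitation and sequencing was done with 5 antibodies (H3K4me3, H3K9me3, H3K36me3, H4K20me3 and MINA), with 1 WT and 1 KO library each, so no value below has a replicate and none was tested. The MINA antibody still gave 7859 intervals in KO cells, against 16353 in WT cells. The lists hold no read counts, so depth is unknown. The intervals printed in brackets after shares are 95% Wilson intervals and cover counting error only. They treat the counted intervals as independent and leave out differences between libraries. Whether they overlap is given as a description and is no test.

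The members were chosen by the H4K20me3 lists of both genotypes and the H3K9me3 list of WT cells, so their values on these lists are given as a description. The H4K20me3 list held 8539 intervals over 67.2 Mb in WT and 25318 over 149.6 Mb in KO. The H3K9me3 list held 45805 intervals over 254.7 Mb in WT and 53375 over 305.7 Mb in KO. The part of these list sizes in the gained share, and in the KO widths and joins given below, was not tested. Of the KO H4K20me3 intervals 80.4% were gained, meaning that no WT H4K20me3 interval overlapped them, and 62.5% lay on WT H3K9me3. The 7963 gained intervals off WT H3K9me3 and the 3429 kept intervals on WT H3K9me3 serve as comparisons below. Members had a median width of 4.0 kb, with quartiles of 2.6 and 7.0 kb and extremes of 0.2 and 135.6 kb. Gained intervals off WT H3K9me3 were narrower, with a median of 3.2 kb, and kept intervals on WT H3K9me3 were wider, with a median of 6.4 kb. Wide members were few, since 404 reached 20 kb.

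At the edge of the rule, 29 members met WT H3K9me3 over 200 bp alone, and 266 gained intervals had WT H3K9me3 within 1 kb without overlap. Their median width was 3.2 kb on either side of the edge. H3K9me3 of KO cells lay under 75.9% of those just inside and 73.7% of those just outside, and WT H3K4me3 under 13.8% and 15.8%. On the other edge, 125 members had WT H4K20me3 within 1 kb, and 28 kept intervals on H3K9me3 met WT H4K20me3 over no more than 400 bp.

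Most members lay far from any H4K20me3 of WT cells. The median distance to the nearest WT H4K20me3 interval was 371.6 kb, with quartiles of 84.4 and 971.3 kb. Only 502 members, or 4.05%, had such an interval within 5 kb, and for 2992 members none was found within 1 Mb. For the gained intervals off WT H3K9me3 the median distance was 288.4 kb and 4.91% had WT H4K20me3 within 5 kb.

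The 5 widest members show the range of what lay below. The widest spanned 135.6 kb on chromosome 6 from 39751601 to 39887200 (hg19). In WT cells H3K9me3 covered 12.4 kb of it in 1 interval, and in KO cells 134.4 kb in 2 intervals. H3K4me3 covered 2.8 kb in WT and 4.0 kb in KO, and neither H3K36me3 nor MINA of either genotype was listed there. The member thus reached far past its WT H3K9me3, and H3K9me3 of KO cells covered nearly all of it. On the right the KO H3K9me3 interval ran on past the member, and on the left further intervals followed after a gap.

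The other 4 were covered by WT H3K9me3 almost from end to end. They were chr20:40694001-40787200 (93.2 kb), chr1:13781401-13859200 (77.8 kb), chr7:57375601-57445400 (69.8 kb) and chr11:115487401-115556800 (69.4 kb). WT H3K9me3 covered 91.4, 77.4, 66.6 and 68.6 kb of them in that order, and KO H3K9me3 covered each in full with 1 interval. No interval of H3K4me3, H3K36me3 or MINA was listed on these 4 in either genotype. On chromosome 7 the WT H3K9me3 lay in 5 intervals and on chromosome 20 in 3.

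**Figure D1:**
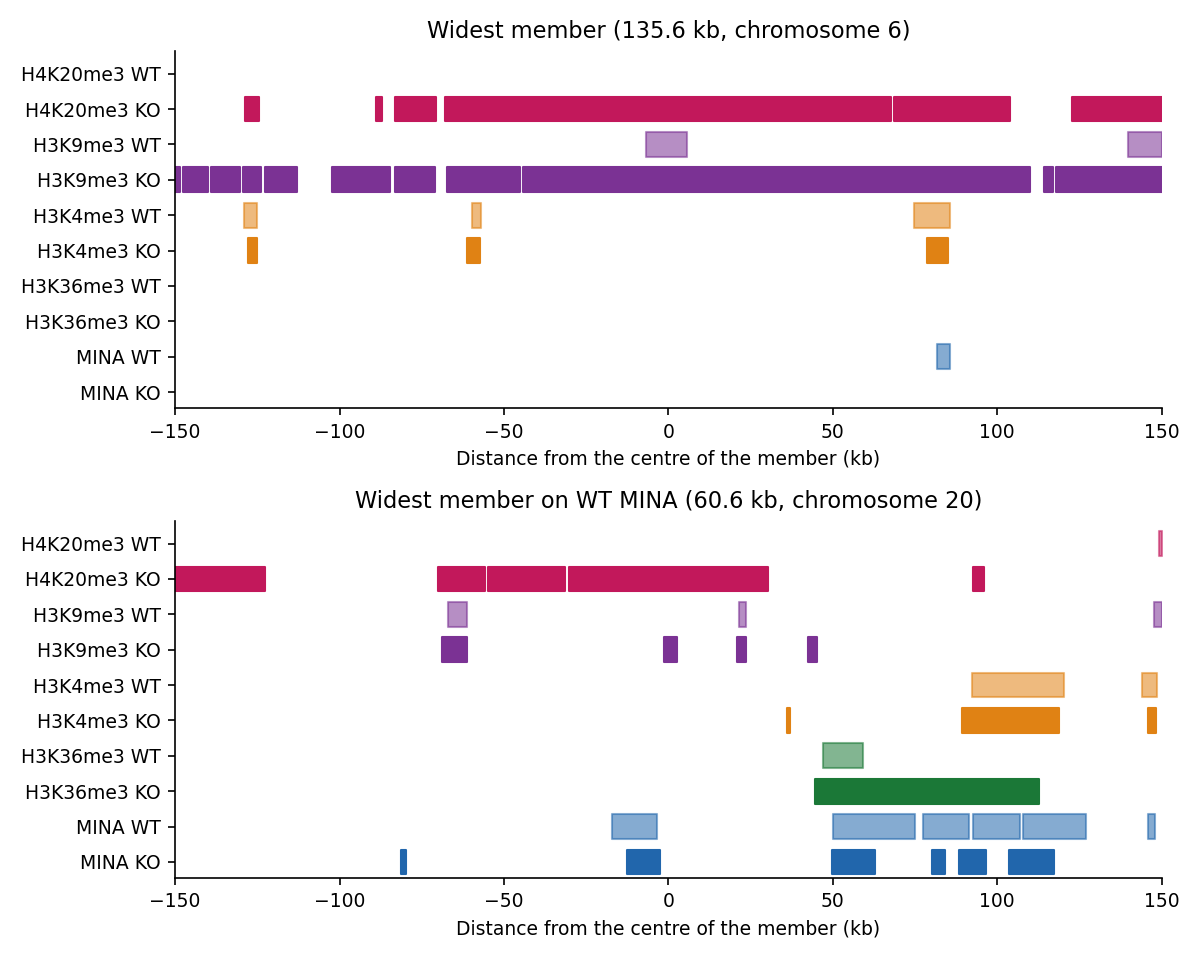
Intervals of the 10 lists (rows; paler bars WT, darker bars KO) within 150 kb of the centre of the widest member, top, and of the widest member on WT MINA, bottom; the x axis is the distance from the centre in kb. At the top KO H3K9me3 covers 134.4 kb of the 135.6-kb member and WT H3K9me3 12.4 kb, and KO H3K9me3 goes on over most of the window, while at the bottom H3K9me3 covers 2.2 kb of the 60.6-kb member in WT and 6.8 kb in KO.

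The KO list of H3K9me3 was not used to choose the members, but the WT list was. The comparisons with all KO H4K20me3 intervals and with those off WT H3K9me3 are therefore partly set by the rule. It was found under 11471 of the 12394 members, or 92.6% (92.1% to 93.0%), beside 68.5% of all KO H4K20me3 intervals. It lay under 89.4% of the kept intervals on WT H3K9me3 and 33.3% of the gained intervals off it. Seen from WT H3K9me3, 68.6% of all its intervals were found again in KO cells. Nearly all members thus lay on H3K9me3 in both genotypes.

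By length, 59.9 Mb of the 73.0 Mb of members lay on WT H3K9me3, and KO H3K9me3 covered 87.6% of that. The other 13.1 Mb of members lay outside WT H3K9me3, and KO H3K9me3 covered 55.9% of it. WT H3K9me3 covered 6195 members from end to end and KO H3K9me3 8586. The 55.9% past the WT H3K9me3 was close to the KO H3K9me3 cover around the members, which was 53.9% at 20 kb to the left of their centres.

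A typical member was a narrower interval inside a broader one of H3K9me3. Of the members 91.3% lay on a single WT H3K9me3 interval, 936 on 2 and 144 on 3 or more, up to 9. For the 10276 members on exactly 1 WT and 1 KO interval of H3K9me3 the median widths were 3.6 kb for the member, 5.6 kb for WT H3K9me3 and 9.2 kb for KO H3K9me3. The member was narrower than the WT H3K9me3 in 70.9% of these cases and narrower than the KO H3K9me3 in 81.4%. The centres of the member and of the WT H3K9me3 were 0.9 kb apart at the median, and those of the member and the KO H3K9me3 1.6 kb.

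H3K9me3 peaked at the centres of the members and stayed common around them, as the profile of the lists by distance shows. WT H3K9me3 covered 91.1% of the members at their centre, 42.6% at 5 kb to the left and 39.2% at 20 kb. KO H3K9me3 covered 89.0% at the centre, 55.8% at 5 kb and 53.9% at 20 kb. WT H3K9me3 covered 8.40% of the whole span of the chromosomes. Since the members were chosen for overlap with this mark, nothing is read from its higher cover around them. At 20 kb KO H4K20me3 still covered 26.9% and WT H4K20me3 2.56%.

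**Figure D2:**
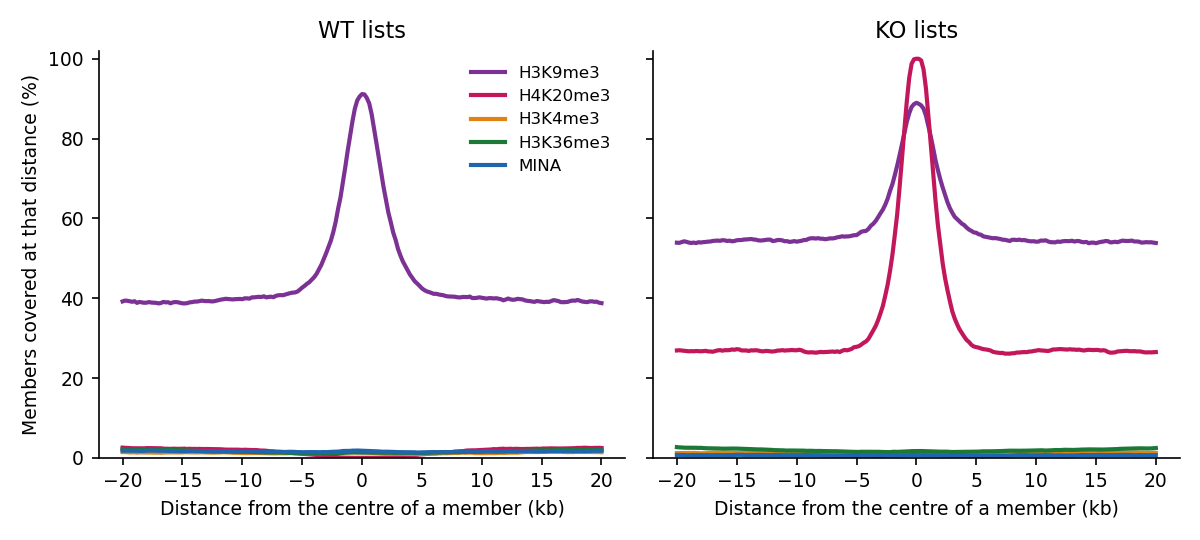
Share of the 12394 members covered by each list (y axis, %) at each distance from the centre of the member (x axis, kb), WT lists on the left and KO lists on the right. H4K20me3 is 0 at the centre in WT and 100% in KO by the rule; H3K9me3 peaks at the centre in both, on a level of 39.2% in WT and 53.9% in KO at 20 kb, and H3K4me3, H3K36me3 and MINA stay below 3%.

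The same gain was then read from the side of H3K9me3. Of the 45805 WT H3K9me3 intervals 40497 met no H4K20me3 in WT cells, and 29.0% of these met H4K20me3 in KO cells. Where H3K9me3 was also found in KO the share was 39.3% (38.7% to 39.8%) of 27629 intervals, and where it was not found in KO the share was 7.07% (6.64% to 7.53%) of 12868. The gain thus went with the presence of H3K9me3 in KO cells. It also went with width, since wide WT H3K9me3 intervals met KO H4K20me3 more often than narrow ones.

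Among H3K9me3 intervals found in both genotypes, KO H4K20me3 met 28.0% of those of 2 kb or less, 32.2% of those over 2 to 5 kb, 46.4% over 5 to 10 kb, 71.3% over 10 to 20 kb and 88.2% over 20 kb. Among those not found in KO the shares in the same order were 3.17%, 5.18%, 12.1%, 24.5% and 49.3%. The order by width held on both sides, and in every class intervals found in KO stood above those not found. The Wilson intervals did not overlap, which speaks to counting error only. A wider interval has a higher chance of an overlap of 1 bp, and its part in the order by width was not tested.

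**Figure D3:**
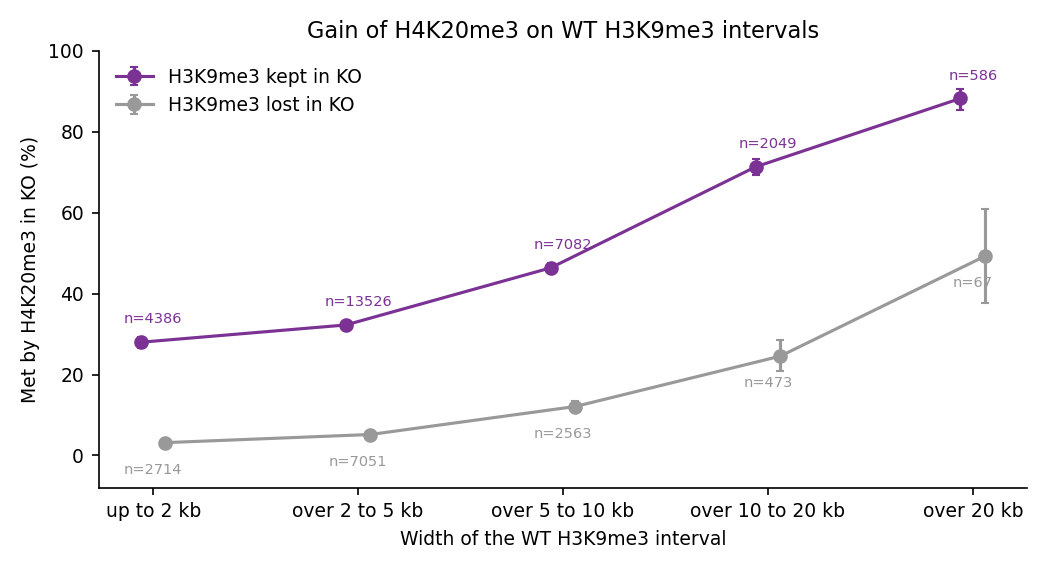
Share of WT H3K9me3 intervals without WT H4K20me3 that met H4K20me3 in KO cells (y axis, %), by width of the WT interval (x axis) and by whether H3K9me3 was found in KO; bars are 95% Wilson intervals and n is the number of intervals. The share climbs from 28.0% to 88.2% for H3K9me3 found in KO and from 3.17% to 49.3% for H3K9me3 not found in KO.

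The H3K9me3 that gained H4K20me3 kept more of its length than the H3K9me3 that did not. Of 11759 WT H3K9me3 intervals with gained H4K20me3, over 82.9 Mb, KO H3K9me3 was found on 92.3% (91.8% to 92.7%) and covered 81.3% of the length. Of the 28738 without H4K20me3 in either genotype, over 118.7 Mb, it was found on 58.4% (57.8% to 59.0%) and covered 45.8%. The difference held in each width class. For intervals over 10 to 20 kb KO H3K9me3 covered 81.0% of the length with gained H4K20me3 and 42.2% without.

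The KO width of the H3K9me3 below was compared where 1 WT interval met 1 KO interval and no other. With gained H4K20me3 there were 5711 such pairs, with median widths of 4.2 kb in WT and 5.0 kb in KO. The median KO over WT ratio was 1.06, and 53.8% of the pairs were wider in KO, beside 43.1% of all one-to-one pairs, while 40.3% were narrower, beside 51.5%. Without H4K20me3 there were 11739 pairs with a median of 3.4 kb in both genotypes, a ratio of 0.964, and 44.3% wider and 50.4% narrower in KO. Once intervals within 5 kb were merged, the ratio with gained H4K20me3 was 0.960, so the direction of this small difference from 1 depends on how intervals are joined.

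The contrast was larger for wide H3K9me3. For pairs over 10 to 20 kb in WT the median ratio was 0.898 with gained H4K20me3 and 0.509 without, and over 20 kb it was 0.973 over 134 pairs (quartiles 0.290 and 1.03) and 0.236 over 23 pairs (quartiles 0.0972 and 0.329). For pairs of 2 kb or less it was 1.80 with and 1.50 without. Wide H3K9me3 intervals without H4K20me3 were thus mostly much narrower in KO, while those with gained H4K20me3 had a median near their WT width and a wide spread. Over 10 to 20 kb 61.2% of the pairs with gained H4K20me3 were narrower in KO and 86.7% of those without. Over 20 kb these shares were 56.0% and 100%. Pairs were sorted by WT width, and in both groups the ratio was lower for wide pairs than for the narrowest. The part of this sorting in the ratios was not tested.

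Pairs leave out H3K9me3 intervals that were joined in KO cells, and these were common below the members. Of the H3K9me3 intervals found in KO, 43.7% (42.8% to 44.7%) of those with gained H4K20me3 lay under a KO interval that spanned 2 or more WT intervals, against 25.3% (24.6% to 25.9%) of those without. The widest KO interval on them had a median width of 9.8 kb with gained H4K20me3 and 4.4 kb without. At WT widths over 10 to 20 kb these medians were 19.6 and 8.2 kb. A single KO interval spanned up to 26 WT intervals. Breaks, with 2 or more KO intervals on 1 WT interval, were seen for 6.62% of the intervals with gained H4K20me3 and 7.77% of those without. Over 10 to 20 kb they were seen for 16.9% with and 33.5% without, beside joins of 56.1% and 26.5%, and over 20 kb for 25.7% and 52.2%, the latter beside joins of 29.0%. Without H4K20me3, breaks were thus the more common at these widths.

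No H3K9me3 was found in KO cells under 923 members, or 7.45%. They were somewhat wider than the others, with a median of 4.8 kb against 4.0 kb, and 183 of them had KO H3K9me3 within 5 kb. Of these 923, 5.20% (3.94% to 6.83%) lay on WT MINA and 5.85% (4.51% to 7.56%) on WT H3K4me3, against 2.48% (2.22% to 2.79%) and 2.28% (2.03% to 2.57%) of the members with KO H3K9me3. For WT H3K36me3 the order was the other way, with 0.758% (0.368% to 1.56%) and 1.73% (1.51% to 1.99%).

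The 3 widest members without H3K9me3 in KO lay on chromosomes 7 and 6. The first spanned 58.6 kb on chromosome 7 from 57262401 to 57321000, where WT H3K9me3 covered 56.4 kb and the nearest KO H3K9me3 lay 1.6 kb away. The other two, of 51.0 kb from 33885201 to 33936200 and 47.8 kb from 36704601 to 36752400 on chromosome 6, held only 8.8 and 9.2 kb of WT H3K9me3. The member on chromosome 7 therefore appears as H3K9me3 in WT cells and as H4K20me3 without H3K9me3 in KO cells, over nearly the same span.

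Active marks were rare on the members. WT H3K4me3 lay on 316 members, or 2.55% (2.29% to 2.84%), beside 19.6% of all KO H4K20me3 intervals, and WT H3K36me3 on 206, or 1.66% (1.45% to 1.90%), beside 9.33%. At least 1 of these marks lay on 467 members, or 3.77% (3.45% to 4.12%), beside 22.2%. In KO cells H3K4me3 lay on 2.29% of the members, beside 17.8%, and H3K36me3 on 2.08%, beside 11.0%. Gained intervals off WT H3K9me3 met WT H3K4me3 in 40.3% of cases and kept intervals on WT H3K9me3 in 19.3%, both outside the interval of the members.

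Members thus differed from the other gained H4K20me3 and from H4K20me3 that WT cells already had on H3K9me3. The first difference is partly set by the rule, because active marks were rare on WT H3K9me3 as a whole. Of all WT H3K9me3 intervals 2.53% overlapped WT H3K4me3 and 2.91% WT H3K36me3. This pools intervals with WT H4K20me3, at 12.7% and 8.10%, those with gained H4K20me3, at 2.15% and 1.44%, and those with H4K20me3 in neither genotype, at 0.807% and 2.55%. Neither mark and no MINA of either genotype lay on 93.7% of the members, beside 73.0% of all KO H4K20me3 intervals. The share was 64.1% for kept intervals on WT H3K9me3 and 51.5% for gained intervals off it. Among the WT H3K9me3 intervals free of WT H4K20me3, those on H3K4me3 gained H4K20me3 in 52.2% (47.7% to 56.6%) of 485 cases, and those off it in 28.8% (28.3% to 29.2%). Those on H3K36me3 gained it in 18.8% (16.3% to 21.4%) of 901 cases, and those off it in 29.3% (28.8% to 29.7%).

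**Figure D4:**
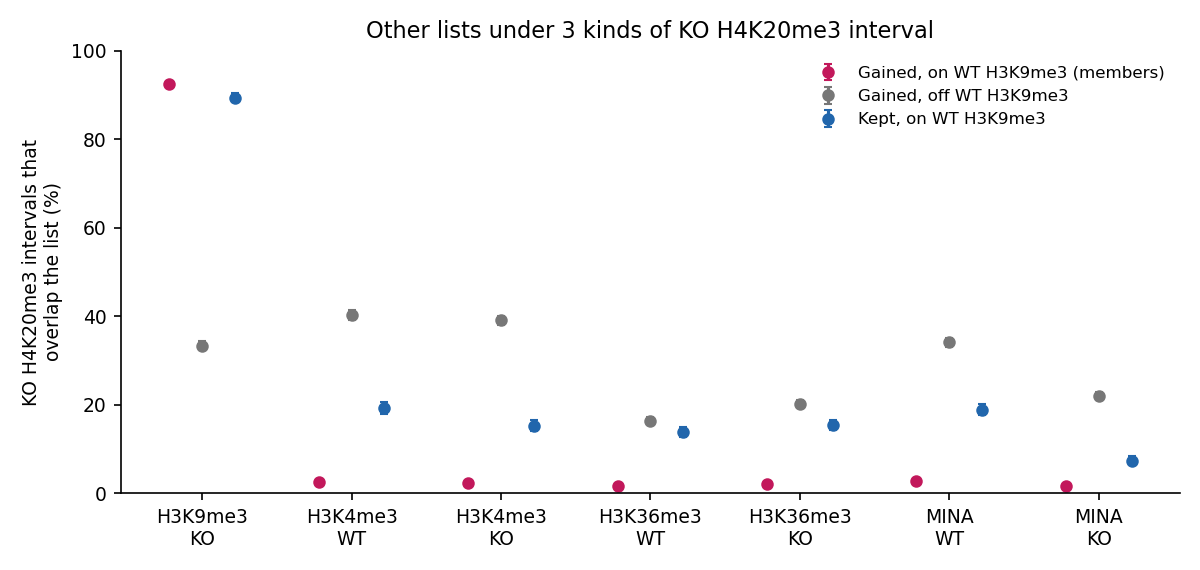
Share of KO H4K20me3 intervals that overlap each other list (y axis, %; x axis, list) for the 12394 members, the 7963 gained intervals off WT H3K9me3 and the 3429 kept intervals on WT H3K9me3; bars are 95% Wilson intervals. The members are the highest on KO H3K9me3 at 92.6% and the lowest of the 3 on H3K4me3, H3K36me3 and MINA of both genotypes.

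Where an active mark did meet a member it mostly stayed in KO cells. Of 321 WT H3K4me3 intervals overlapping a member 80.7% (76.0% to 84.6%) were found in KO, beside 85.1% of all. Of 203 WT H3K36me3 intervals 95.1% (91.2% to 97.3%) were found in KO, beside 85.5% of all. In the other direction 86.3% (81.9% to 89.8%) of 292 KO H3K4me3 intervals on members were found in WT, beside 94.1% of all, and 81.3% (76.1% to 85.7%) of 252 KO H3K36me3 intervals, beside 85.5% of all. By member, 237 of the 316 on WT H3K4me3 carried it in KO as well, 79 did not, and 47 others carried it in KO alone.

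The 3 widest members on WT H3K4me3 were the widest of all on chromosome 6, described above, the 47.8-kb member of chromosome 6 without KO H3K9me3, and 1 of 49.6 kb on chromosome 1 from 2356401 to 2406000. In the last, H3K4me3 covered 14.8 kb in WT and 11.0 kb in KO, H3K9me3 8.4 and 8.0 kb, and MINA 48.0 and 23.6 kb. In the 47.8-kb member H3K4me3 covered 1.2 and 2.6 kb and MINA 46.6 and 47.0 kb. MINA of WT cells thus covered these 2 over most of their length.

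Signal of the MINA antibody in WT cells lay on 333 members, or 2.69% (2.42% to 2.99%), beside 17.2% of all KO H4K20me3 intervals. In KO cells it lay on 1.53% of the members, beside 9.90%. The share in WT was 34.1% for gained intervals off WT H3K9me3 and 18.8% for kept intervals on it. The contrast with intervals off WT H3K9me3 is again partly set by the rule. Of all WT H3K9me3 intervals 2.93% overlapped WT MINA. This pools 13.5% of those with WT H4K20me3 and 2.58% (2.31% to 2.88%) of those with gained H4K20me3. With H4K20me3 in neither genotype it was 1.13% (1.01% to 1.26%). Of the 333 members 150 also lay on WT H3K4me3 and 65 on WT H3K36me3, while 153 lay on neither. They were wider than the rest, with a median of 7.4 kb against 4.0 kb, and the share on WT MINA ran from 0.818% of members of 2 kb or less to 9.39% of those over 20 kb. KO H3K9me3 lay under 85.6% (81.4% to 89.0%) of them and under 92.7% (92.3% to 93.2%) of the members off WT MINA.

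Read from H3K9me3, WT MINA went with the gain on narrow intervals. Among WT H3K9me3 intervals of 2 kb or less without WT H4K20me3, those on WT MINA met KO H4K20me3 in 22 of 40 cases (55.0%) and those off it in 18.3%. Over 2 to 5 kb the shares were 51.1% of 268 and 22.6%. Over 5 to 10 kb they were 39.2% of 237 and 37.2%, and over 10 to 20 kb 59.2% of 71 and 62.6%. The 2 wider classes did not differ beyond their counting intervals.

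The MINA intervals on members were also looked for in the other genotype. Of 360 WT MINA intervals overlapping a member 31.4% (26.8% to 36.4%) were found in KO, beside 38.8% of all. Of 207 KO MINA intervals on members 47.3% (40.7% to 54.1%) were found in WT, beside 83.1% of all. By member, 85 carried MINA in both genotypes, 248 in WT alone and 105 in KO alone. Signal in KO alone comes from cells that by their label made no mdig.

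The widest members on WT MINA held little H3K9me3. The first spanned 60.6 kb on chromosome 20 from 56147001 to 56207600, with H3K9me3 over 2.2 kb in WT and 6.8 kb in KO and MINA over 13.8 and 10.0 kb. The second spanned 53.4 kb on chromosome 9 from 136361401 to 136414800, with H3K9me3 over 9.8 and 13.8 kb and MINA over 7.2 and 9.2 kb. The third was the 49.6-kb member of chromosome 1 given above. In all 3 H4K20me3 of KO cells ran well beyond the H3K9me3 of either genotype.

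The members were spread over all chromosomes and unevenly so. By number chromosome 7 held the most with 1103, then chromosome 5 with 948 and chromosome 14 with 855, and chromosome X the fewest with 127. Per Mb of WT H3K9me3, chromosome 15 had 107.9 members, X 77.4 and chromosome 7 76.5, while chromosomes 3, 12 and 11 had 29.4, 32.7 and 34.5. This rate is per length, and WT H3K9me3 free of WT H4K20me3 had a median width of 2.4 kb on X, beside 3.8 kb overall in the genome. Counted by such intervals, 24.4% on X gained H4K20me3, beside 29.0% in the whole genome. Chromosomes 15 and 7 had 57.8% and 58.6%, and chromosomes 3, 12 and 11 had 15.9%, 23.7% and 23.9%. By this share X was thus near chromosomes 11 and 12. Member widths differed too, with medians from 2.6 kb on X to 7.4 kb on chromosome 20. On chromosome 20, 24.7% of the WT H3K9me3 intervals free of WT H4K20me3 were over 10 kb, on chromosome 19 21.6%, and in the whole genome 7.84%.

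Part of this order went with long stretches of chromosomes that differed in H3K4me3. These raised stretches were cut from H3K4me3 alone, as parts of chromosomes where the KO over WT ratio of its covered length was in the upper of 2 states, with a median ratio of 1.04 in bins of 2 Mb inside and 0.812 outside. There were 10 of them on chromosomes 4, 5, 6, 7, 9, 14, 15 and X, with 23.0% of the span and 14.2% of the WT H3K9me3 length. They held 26.6% of the members, 48.0% of the gained intervals off WT H3K9me3 and 12.3% of the kept intervals on it. Inside them 51.0% (49.8% to 52.2%) of the WT H3K9me3 intervals free of WT H4K20me3 met it in KO, and outside 24.7% (24.3% to 25.2%). Of the single members named above, those on chromosomes 6, 7 and 9 lay inside the stretches and the others outside. Those inside include the widest of all and the 3 widest without KO H3K9me3.

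The higher gain inside the stretches was seen at each width of H3K9me3. For intervals over 2 to 5 kb found in both genotypes it was 55.5% (53.7% to 57.4%) inside and 26.5% (25.7% to 27.4%) outside, and over 10 to 20 kb 90.1% (86.2% to 93.0%) and 68.2% (66.0% to 70.3%). Over 20 kb it was 94.3% (87.2% to 97.5%) of 87 inside and 87.2% (84.0% to 89.8%) of 499 outside, and these counting intervals overlap. WT H3K9me3 covered 73.6% of the length of the members inside and 85.6% outside, and the median KO over WT width ratio of the one-to-one H3K9me3 pairs with gained H4K20me3 was 1.12 inside and 1.04 outside. KO H3K9me3 lay under 92.3% of those inside and 92.7% of those outside, and median widths were 4.2 and 4.0 kb. KO MINA lay on 3.31% of those inside and 0.890% of those outside, beside 12.8% and 8.63% of all KO H4K20me3 intervals. WT MINA went the other way, with 1.67% inside and 3.06% outside, beside 12.4% and 19.2%. Of the 105 members with MINA in KO alone 73 lay inside, and of the 248 with MINA in WT alone 19. The share of the gain that goes with the stretches was not tested.

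Within single chromosomes the contrast could be wide. On chromosome 7 the share of WT H3K9me3 intervals that gained H4K20me3 was 67.2% of 1788 inside the stretches and 7.07% of 297 outside, on chromosome 6 45.3% and 10.4%, and on chromosome 9 48.9% and 12.8%. On chromosome 4 the shares were closer, at 25.8% and 19.8%. All of chromosome 15 lay inside, with 57.8%. Outside the stretches chromosomes 20, 19 and 22 had the highest shares, at 53.6%, 52.2% and 50.6%, and chromosomes 16 and 17 followed at 34.4% and 32.7%. Chromosomes 19, 20 and 22 held no raised stretch.

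**Figure D5:**
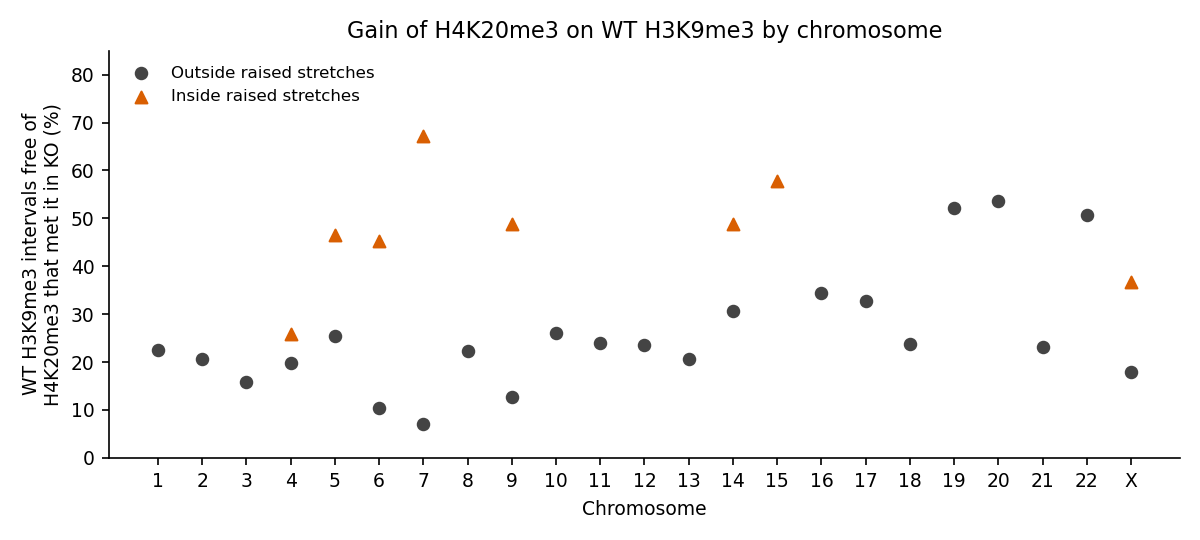
Share of WT H3K9me3 intervals free of WT H4K20me3 that met H4K20me3 in KO (y axis, %) for each chromosome (x axis), outside (circles) and inside (triangles) the raised stretches cut from H3K4me3. On all 7 chromosomes with both values the inside value is the higher, and chromosomes 19, 20 and 22 stand above 50% outside the stretches.

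Chromosome X held few members and little H3K9me3 in WT cells. There were 543 WT H3K9me3 intervals over 1.64 Mb and, in KO cells, 18.5 Mb of H3K9me3. Of the 846 KO H4K20me3 intervals on X the members were 15.0%, the lowest share of any chromosome, against 66.3% on chromosome 16 at the other end. Of the 513 WT H3K9me3 intervals on X free of WT H4K20me3, 24.4% (20.9% to 28.3%) gained it. None of the 127 members on X lay on WT MINA, beside 2.69% of all members. The number on X is small, and nothing is read from this. The widest member there spanned 40.6 kb from 58279601 to 58320200, with H3K9me3 over 39.2 kb in WT and 40.0 kb in KO.

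On chromosome 19, where KRAB zinc finger genes carry H3K9me3, there were 681 members and a larger share of them, 9.54%, lay on an active mark of WT cells than on any other chromosome. Chromosome 9 came next with 8.95%. The widest member of chromosome 19 spanned 52.2 kb from 32017401 to 32069600 and was covered in full by 1 H3K9me3 interval in each genotype. The nearest WT H4K20me3 lay 16.4 kb away.

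Members gathered in clusters, and whether more so than WT H3K9me3, on which they lie by the rule, was not tested. Of 1529 bins of 2 Mb 1169 held at least 1 member, with a median of 2 over all bins, and 109 bins (7.13%) were enough to hold 50% of the members. The fullest, with 146 members, lay on chromosome 5 from 2000001 to 4000000. There H4K20me3 covered 122.2 kb in WT and 1381.0 kb in KO, while H3K9me3 changed from 1655.6 to 1781.4 kb. H3K4me3 covered 27.8 and 13.2 kb, H3K36me3 2.6 and 7.8 kb and MINA 2.6 and 0.0 kb. Most of the bin was thus H3K9me3 in both genotypes, and most of its H4K20me3 was found in KO alone.

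The next fullest bins lay on chromosome 19 from 22000001 to 24000000, with 117 members, and on chromosome 7 from 68000001 to 70000000, with 114. On chromosome 19 H4K20me3 covered 264.2 kb in WT and 1055.6 kb in KO and H3K9me3 1611.4 and 1700.2 kb. On chromosome 7 H4K20me3 covered 2.4 and 1372.2 kb and H3K9me3 979.8 and 1686.0 kb, and no H3K4me3, H3K36me3 or MINA was listed in either genotype. In this bin, which lies in a raised stretch, both heterochromatin marks covered more in KO.

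Several members could share 1 interval of H3K9me3, so they are not independent of each other. The 12394 members lay on 11979 WT H3K9me3 intervals, of which 10668 held 1 member, 1043 held 2, 191 held 3 and 77 held 4 or more. The most were 9 on an H3K9me3 interval of 94.8 kb on chromosome 1 from 3995401 to 4090200, with 78.2 kb of members of 1.8 to 20.6 kb each. An interval of 71.2 kb on chromosome 22 from 49956001 to 50027200 held 7, and one of 122.4 kb on chromosome 19 from 37961801 to 38084200 held 6. KO H3K9me3 covered 93.8, 69.2 and 119.4 kb of these 3 intervals and KO H4K20me3 82.8, 57.2 and 90.8 kb. WT H4K20me3 covered 2.0 kb of the first, none of the second and 41.0 kb of the third, which lay outside the members.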

How the data were processed

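Chromatin immunoprecipitation libraries of 10 samples were used, 1 for each antibody and genotype. The input library was not used. Per the submitters' processing notes the tools were BWA and SICER version 1.1 and the build hg19. The deposited values are the start and end of each interval, with no score, height or count, and the name of an interval gives its library. The window, gap, threshold, scaling and use of the input were not given in the sources used here. A list called from more reads can hold more and wider intervals. Edges of intervals fell on multiples of 200 bp, and gaps within a list were 800 bp or more.

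Lists were compared with Python 3.11.15, numpy 2.4.6, pandas 2.3.3 and scipy 1.17.1 for 22 autosomes and X. An overlap was 1 bp. The count of members was the same with bedtools 2.31.1. Coordinates are 1-based. Raised stretches came from a 2-state model (switch chance 0.001 per bin) on the log2 KO over WT ratio of H3K4me3 covered length (1 kb added) in bins of 2 Mb. Bins with under 20 kb of H3K4me3 took their neighbours' state. Noise followed a Student distribution with 4 degrees of freedom. The model and the overlap steps were tested on simulated data. The model at times called bins as raised where none was, in the worst draw a larger share than the stretches hold here. False calls were also made at a small simulated ratio, and seldom at the highest one. The ratio found here comes from bins that the model itself sorted, so it cannot tell which simulation applies. How much of the stretches found here is falsely called was therefore not decided. A model with other settings can give other stretches.

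The text names the 5 widest members, the widest on X and 19, the 3 widest on WT MINA, on WT H3K4me3 and without KO H3K9me3, the 3 fullest bins and H3K9me3 intervals, and the chromosomes highest and lowest in members per Mb of WT H3K9me3. Chromosomes named by other values, and chromosomes 4 and 6 among the stretches, were chosen after their values were seen. The members and all rules were chosen with earlier results of these data known. With 1 library per group no test was run. No annotation or sequence of hg19 was used here, so no gene is assigned and no sequence is shown. The alternatives are given in the closing section.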

Additional observations from a re-analysis of the deposited data

How the results depend on the processing

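No paired analysis was possible because each antibody and genotype has 1 library. Of 59 recomputed values under 6 alternatives, 36 stayed within the counting interval of the value given, or within 1.5 times for the count of members, and 23 did not. The share of gained intervals on WT H3K9me3 (60.9%) was 59.2% when 50% of the shorter interval had to overlap, 57.6% with intervals merged within 5 kb, 62.8% on autosomes and 68.7% without the raised stretches. Asking for 50% of the shorter interval gave 2.27% of members on WT MINA, 3.27% on an active mark and a gain of 38.3% on H3K9me3 found in KO. Merging within 5 kb turned the H3K9me3 width ratio to 0.960 and gave 1.45% of members on X, 3.58% on WT MINA, 5.02% on an active mark and gains of 40.4% and 6.29% on H3K9me3 found and not found in KO. With intervals of at least 2 kb the median width was 4.8 kb, KO H3K9me3 lay under 90.7% of members and 0.683% lay on X. Without the raised stretches the width ratio was 1.04, 0.682% of members lay on X and 3.06% on WT MINA, and the gains were 34.4% and 5.75%. With no WT H4K20me3 allowed within 5 kb, 2.41% lay on WT MINA and 3.43% on an active mark. The cause of these shifts was not tested, except that a setting with fewer intervals or chromosomes changes what is counted. Only the width ratio has a direction that could turn, above or below 1, and it turned with intervals merged within 5 kb. The other results are a count, shares or a width, so no turn could be seen in them. Without read counts, how far depth limits the lists cannot be given.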
